A study of Mus musculus with 6 samples.

Results

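The genes of the Wnt pathway were followed in the rostral forebrain of mouse embryos lacking both Fezf genes, Fezf1 and Fezf2, which encode zinc-finger repressors that pattern the early forebrain. Members were chosen by name from the array annotation: every gene called Wnt, Fzd, Sfrp, Dkk or Rspo with a number, the co-receptors Lrp5 and Lrp6, and Axin2, Lef1, Apcdd1, Nkd1 and Wif1. This gave 48 of the 18194 genes with a symbol of their own on the array, namely 19 ligands, 12 receptors, 4 R-spondins, 9 secreted inhibitors and 4 feedback or nuclear genes. The groups were Fezf1-/- Fezf2-/- embryos, called the knockout here, and wild-type embryos, each taken on embryonic day 9.5 (E9.5), day 10.5 (E10.5) or day 12.5 (E12.5). Each of these 6 groups is 1 Affymetrix array hybridised with biotin-labelled RNA of forebrain, which was dissected by hand and held the tissue rostral to where the lateral ventricles end. The genotype label names both null alleles and no Cre driver, so the loss was not limited to a cell type by design as far as the labels say. The sources used here give neither the strain nor the number of embryos per array.

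Wnt proteins are secreted, lipid-modified ligands that bind Frizzled receptors and the co-receptors Lrp5 and Lrp6. The canonical branch stabilises beta-catenin, which enters the nucleus and activates target genes together with Tcf and Lef factors, and some of those targets, such as Axin2, Nkd1 and Apcdd1, dampen the signal again. Sfrp proteins and Wif1 bind Wnts outside the cell, most Dkk proteins block the co-receptors, and R-spondins strengthen the signal by keeping receptors at the cell surface. In the early forebrain, low Wnt activity is required at the rostral end, while the cortical hem at the dorsal midline becomes a source of several Wnts.

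RefSeq promoter windows (GRCm38.p6), which run from 250 bases before to 50 bases after a gene's start, were matched to 31 of the 48 members by symbol. Shown first are those of 3 genes that differed in the same direction between genotypes at all 3 ages, Wnt8b, Nkd1 and Wnt6, and that of Dkk1, which fell with age. Capitals mark matches to 4 letter strings bound by Tcf and Lef factors, CTTTGAT or CTTTGAA or CTTTGTT or CTTTGTA, which share the letters CTTTG and were searched on both strands.
Wnt8b (chr19:44493222-44493521, + strand): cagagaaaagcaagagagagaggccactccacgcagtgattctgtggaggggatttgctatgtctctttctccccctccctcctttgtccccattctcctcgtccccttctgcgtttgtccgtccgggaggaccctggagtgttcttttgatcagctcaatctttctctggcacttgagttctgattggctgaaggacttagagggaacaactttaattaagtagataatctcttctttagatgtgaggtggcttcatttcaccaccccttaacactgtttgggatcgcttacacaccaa
Nkd1 (chr8:88527383-88527682, + strand): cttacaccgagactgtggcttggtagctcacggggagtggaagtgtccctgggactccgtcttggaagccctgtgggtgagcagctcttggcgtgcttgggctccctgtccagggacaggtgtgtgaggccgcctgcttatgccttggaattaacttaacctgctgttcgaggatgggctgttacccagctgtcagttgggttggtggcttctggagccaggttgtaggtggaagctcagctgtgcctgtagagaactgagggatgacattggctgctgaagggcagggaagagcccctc
Wnt6 (chr1:74771642-74771941, + strand): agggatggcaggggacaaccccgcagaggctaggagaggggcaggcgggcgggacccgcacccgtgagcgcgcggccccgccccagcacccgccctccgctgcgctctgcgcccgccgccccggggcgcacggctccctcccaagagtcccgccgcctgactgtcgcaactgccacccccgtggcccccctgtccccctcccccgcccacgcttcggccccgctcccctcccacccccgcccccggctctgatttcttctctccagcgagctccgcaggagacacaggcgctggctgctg
Dkk1 (chr19:30549447-30549746, - strand): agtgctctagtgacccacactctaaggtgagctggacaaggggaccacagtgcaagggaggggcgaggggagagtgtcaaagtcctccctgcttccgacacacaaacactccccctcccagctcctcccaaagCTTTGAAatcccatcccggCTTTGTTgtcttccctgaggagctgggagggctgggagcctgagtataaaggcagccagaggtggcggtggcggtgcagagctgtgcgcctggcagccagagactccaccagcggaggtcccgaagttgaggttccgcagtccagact
Dkk1 has 2 matches, starting 117 and 98 bases before the gene's start, while the windows of Wnt8b, Nkd1 and Wnt6 hold none of the 4 full strings. At least 1 window with a match was found for 6 of the 31 members, 19.4%, against 18.9% of all 27025 genes with a window. Members' windows were rich in G and C, with a median of 66.7% against 52.7% over all genes, and a median of 27 CpG dinucleotides against 7.

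Signals below are MAS5 values brought to a common distribution between arrays by quantile normalization, and differences are on the log2(signal + 6.5) scale, which understates the change of dim genes. The arrays as deposited differed in level, with trimmed means from 74.3 to 162. Fezf2 signal was 0.458, 0.904 and 1.66 in the knockout at the 3 ages in order, against 78.9, 146 and 249 in wild type. Fezf1 signal was 97.7, 78.4 and 49.5 in the knockout, against 251, 143 and 174 in wild type, and whether its probes lie in the deleted part is not given in the sources used here. Forebrain markers Six3, Otx2, Emx2, Sox2 and Pax6 had signals over 24, the median of all values, on every array. The midbrain markers En1 and En2 lay below it on every array. They belong to a list of 8 genes of thalamus, pretectum and midbrain. The other genes of that list lay above 24 at E9.5 and E10.5 in both genotypes. Pax7, for one, was 165 in the knockout and 133 in wild type at E9.5. Xist, which coats the inactive X, had signals of 453, 11.7 and 17.6 in the knockout, against 725, 573 and 9.87 in wild type. Thus the genotypes differ in Xist at E10.5, and both E9.5 arrays are high and both E12.5 arrays low. For the members that differed by at least 0.3 in the same direction at every age, means are also given without the E10.5 pair. That choice of members fixes that such a mean keeps its sign and is at least 0.3 in size. These means therefore give a size only, and they do not test the part of the Xist mismatch. Among the 48 members 33 passed the filter on dim genes and could be tested, and 10 never rose above 24: Wnt2, Wnt2b, Wnt3, Wnt8a, Wnt10b, Wnt11, Wnt16, Lrp5, Rspo4 and Dkk4. Wnt1, Wnt9b, Wnt10a, Dkk2 and Wif1 passed 24 on some array but not the filter on the mean.

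The first comparison asked which members differed between knockout and wild type in the same way at all 3 ages. Apcdd1, a membrane-bound inhibitor of Wnt signalling, was the member that passed the test and fell in the knockout. Below that threshold, members with lower values in the knockout at every age included the secreted amplifier Rspo3, the ligand Wnt8b and the feedback inhibitor Nkd1, whereas the ligand Wnt6 was higher at every age. By limma with age as a block, 1 of the 33 tested members was lower, where 0.0541% of all 11091 tested genes were, and 0 were higher (0.018% of all). At an unadjusted p under 0.05 stood 6 lower members (18.2%, against 2.24% of all tested genes) and 2 higher members (6.06%, against 2.37%). The p-values measure only the spread between these arrays.

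**Figure D1:**
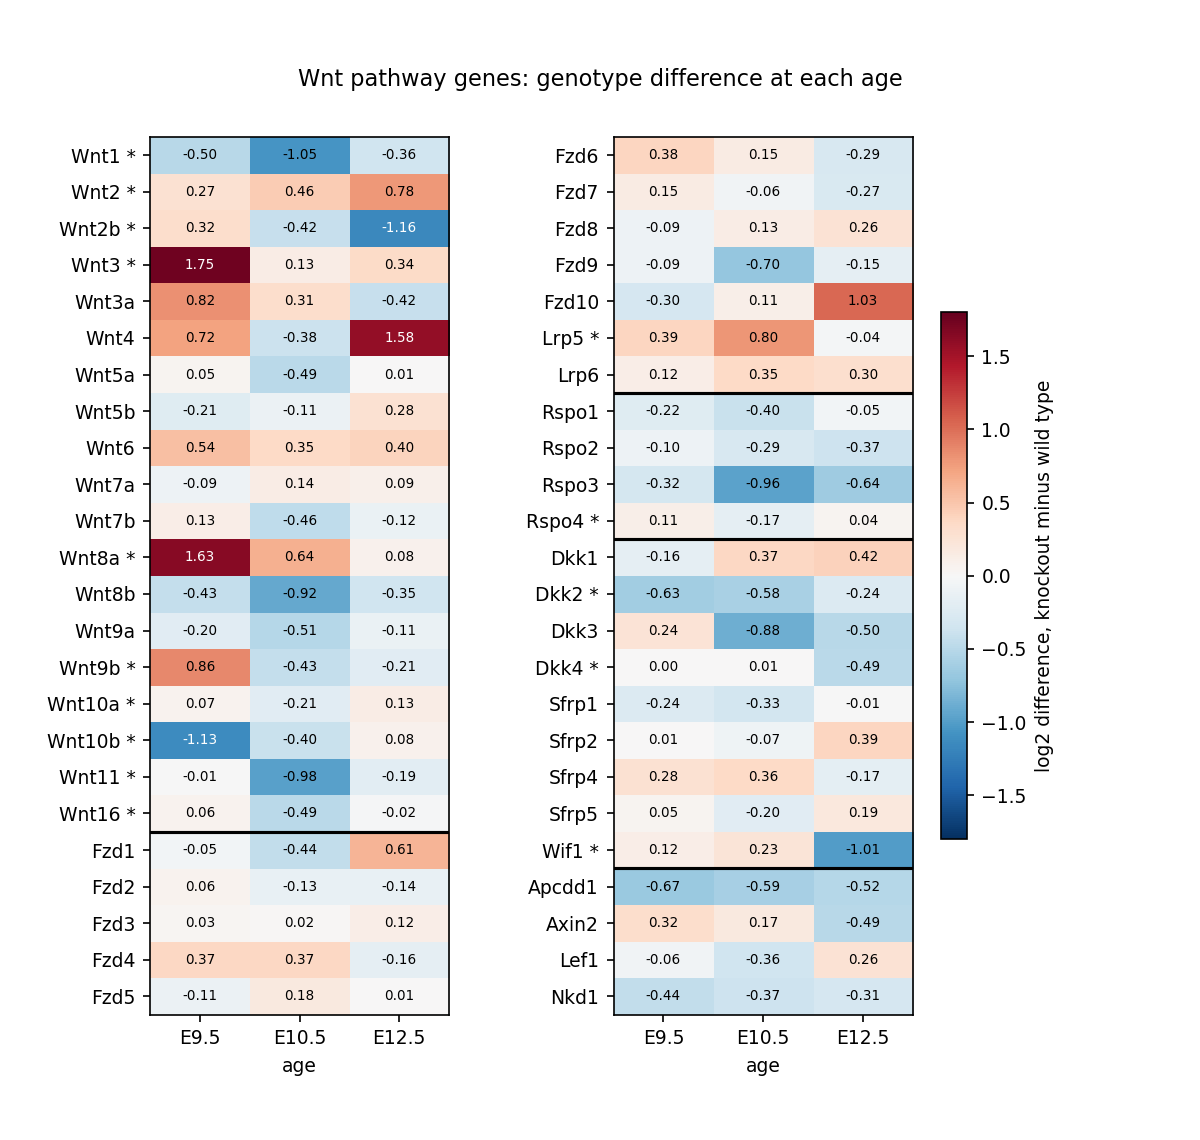
Log2 differences, knockout minus wild type, of the 48 Wnt pathway genes (rows, grouped by ligands, receptors, R-spondins, secreted inhibitors, and feedback and nuclear genes) at the 3 ages from E9.5 on the left to E12.5 (columns), 1 array pair per column. Red is higher and blue lower in the knockout, asterisks mark genes under the filter on dim genes, and Rspo1, Rspo2, Rspo3, Apcdd1 and Nkd1 are blue at every age.

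Apcdd1 signal, with ages in rising order here and below, was 673, 516 and 519 in the knockout, against 1071, 781 and 745 in wild type. The knockout was lower in every pair, and its highest value lay below the lowest wild-type value. The mean difference was -0.59 ± 0.07 (limma's moderated SE, 3 pairs, lower in 3 of 3; adjusted p = 0.0417). In these whole-tissue samples fewer expressing cells and less RNA per cell cannot be told apart. The size rests on the brightest of 6 probe sets: the next 4 were also lower at all 3 ages, with means of -0.14, -0.30, -0.23 and -0.33, while the dimmest gave -0.03, 0.95 and -0.39. Averaging all 6 probe sets, the difference was -0.24 (adjusted p = 0.995), and over 11 alternative settings the call held in 2 and was lost in 9, among them leaving out the E10.5 arrays (-0.59, adjusted p = 0.122) or the E12.5 arrays (-0.63, adjusted p = 0.323).

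Nkd1, an intracellular inhibitor induced by the pathway, had signals of 70.2, 93.8 and 51.7 in the knockout, against 97.6, 123 and 65.4 in wild type. The knockout was lower in every pair (-0.44, -0.37 and -0.31), but the ranges of the genotypes overlap because the gene's level also moved with age. Its mean difference of -0.37 ± 0.14 did not pass (adjusted p = 0.999, and -0.37 without the E10.5 pair). The next brightest Nkd1 probe set was lower too (-0.37, -0.11 and -0.25), while the third gave -0.64, 0.42 and 0.25 and the fourth -0.58, 0.01 and 0.05.

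Axin2, a scaffold gene and widely used target of canonical signalling, did not follow Apcdd1 and Nkd1. Its signal was 205, 179 and 108 in the knockout, against 162, 158 and 155 in wild type. The knockout value was thus above wild type at E9.5 and E10.5 and below it at E12.5, with a mean difference of 0.00 ± 0.16 (adjusted p = 1.0). The other Axin2 probe set is dim, between 1.33 and 18.2 on all arrays. Lef1, a nuclear partner of beta-catenin and itself a target, had 169, 145 and 143 in the knockout, against 177, 188 and 119 in wild type. Its mean was -0.05 ± 0.14 (adjusted p = 0.999), so the 4 feedback and nuclear genes did not share a direction.

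**Figure D2:**
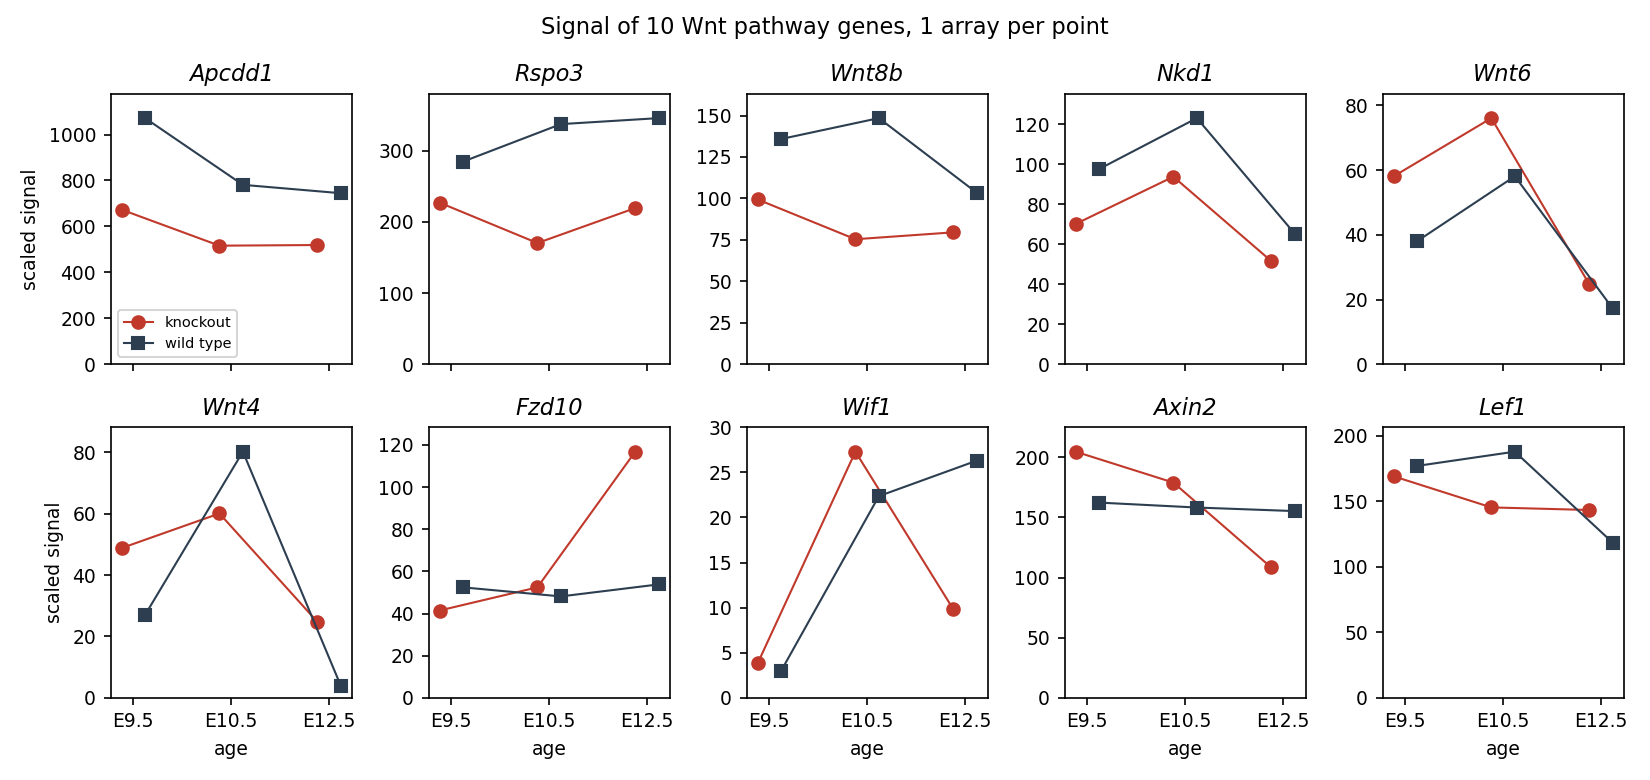
Scaled signal (y axis, linear, from 0) of 10 Wnt pathway genes at 3 ages (x axis) in knockout (red circles) and wild type (dark squares), 1 array per point and no error bars because no group has a replicate. Apcdd1, Rspo3, Wnt8b and Nkd1 lie lower in the knockout at every age, Wnt6 lies higher, and Axin2 and Lef1 cross.

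All 3 tested R-spondins were lower in the knockout at every age. Rspo3 had signals of 227, 170 and 219 in the knockout, against 285, 337 and 346 in wild type, so that no knockout value reached the lowest wild-type value. Differences were -0.32, -0.96 and -0.64, a mean of -0.64 ± 0.13 that did not pass (adjusted p = 0.381, and -0.48 without the E10.5 pair). Without the E9.5 pair it was -0.80 and passed (limma adjusted p = 0.00378). This was the only 1 of 11 alternative settings in which Rspo3 passed, and in the other 10 it did not. The other Rspo3 probe set is dim, between 0.763 and 26.3, and gave -0.22, -0.13 and -0.53. Rspo2 stood at 298, 280 and 206 in the knockout, against 320, 345 and 269 in wild type (mean -0.26 ± 0.10, adjusted p = 0.999). Rspo1 stood at 146, 81.6 and 72.1 in the knockout, against 170, 110 and 74.7 in wild type (mean -0.22 ± 0.13, adjusted p = 0.999). On the values as deposited, where the median tested gene was 0.10, 0.26 and 0.22 higher in the knockout, Rspo3 was still lower at all ages (-0.24, -0.69 and -0.39), Rspo2 stood at 0.00, -0.01 and -0.14, and Rspo1 was 0.12 higher at E12.5.

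Wnt8b, a ligand of the cortical hem and dorsal forebrain, had signals of 99.4, 75.4 and 79.5 in the knockout, against 136, 148 and 103 in wild type. Here too every knockout value lay below every wild-type value. The mean difference of -0.57 ± 0.15 did not pass (adjusted p = 0.887, and -0.39 without the E10.5 pair, which held the largest difference, -0.92). A dimmer Wnt8b probe set gave -0.31, 0.21 and -1.17.

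Wnt6 went the other way. This ligand is known from surface ectoderm, and its signal was 58.1, 76.1 and 24.8 in the knockout, against 38.0, 58.1 and 17.3 in wild type. It was higher in every pair (mean 0.43 ± 0.18, adjusted p = 0.999, and 0.47 without the E10.5 pair), with overlapping ranges. The other probe set of Wnt6 is dim, at most 18.3, and gave 0.01, -0.31 and -0.56. Beside it, the 8 surface ectoderm markers summed to 1733, 1636 and 142 in the knockout, against 1463, 1278 and 146 in wild type. Of these 8, the knockout had 7 higher at E9.5, 8 one day later and 4 by E12.5, and Krt14 lay below 24 on every array. Their part in the Wnt6 difference was not tested.

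**Figure D3:**
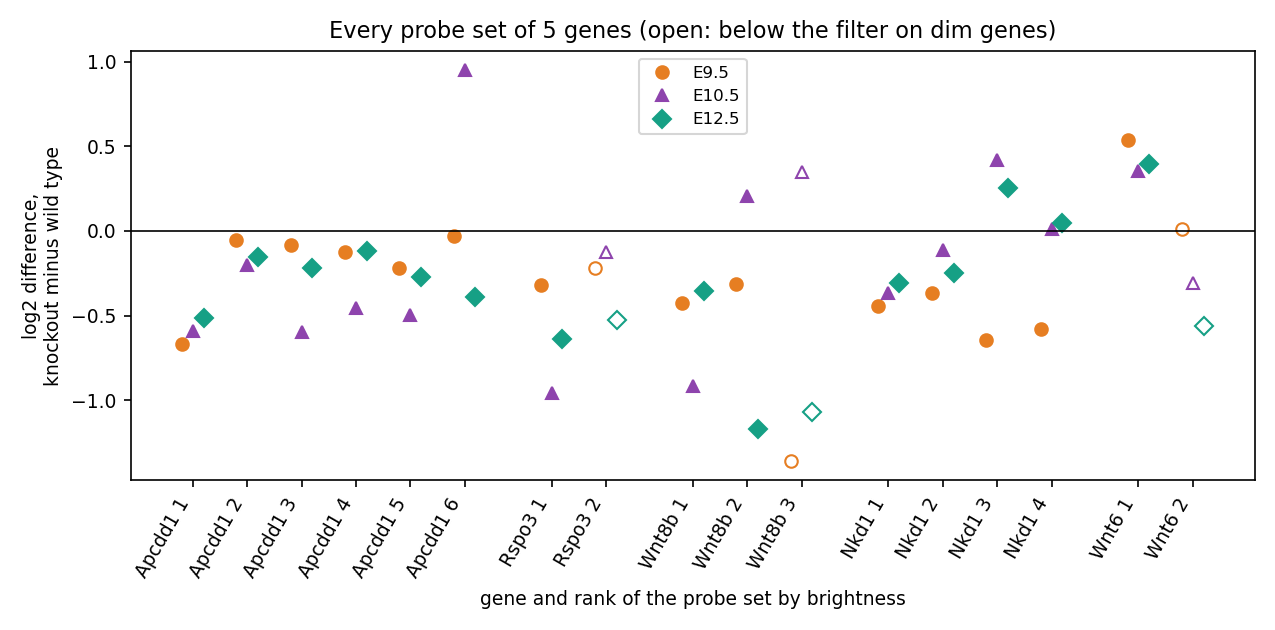
Log2 difference, knockout minus wild type (y axis), for each probe set of 5 genes (x axis, ranked from the brightest) at E9.5 (circles), E10.5 (triangles) and E12.5 (diamonds), 1 array pair per point. Filled symbols passed the filter on dim genes. Apcdd1 probe sets 1 to 5 lie below 0 at all ages, with the brightest farthest below it at E9.5 (-0.67).

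The remaining ligands and the receptors did not pass the test. Counting any size, 9 of the 33 tested members were lower at all 3 ages (27.3%, against 11.5% of all tested genes) and 3 were higher (9.09%, against 13.1%). The lower ones were Apcdd1, Nkd1, Rspo1, Rspo2, Rspo3, Wnt8b, Wnt9a, Fzd9 and Sfrp1, and the higher ones Wnt6, Fzd3 and Lrp6. With a smallest difference of at least 0.3 there were 4 lower (12.1%, against 0.46%) and 1 higher member (3.03%, against 0.379%). These counts are under quantile scaling. On the values as deposited the 4 lower members kept their sign, but each fell short of 0.3 at some age. Apcdd1 was -0.23 and Wnt8b -0.17 at E12.5, Nkd1 -0.14 at E10.5 and Rspo3 -0.24 at E9.5. Wnt6 stayed past 0.3. There Rspo1, Rspo2, Sfrp1 and Wnt9a were not lower at every age, while Fzd2, Fzd8 and Sfrp2 were higher at every age. With a common trimmed mean the 4 lower members and Wnt6 stayed past 0.3. Among 11 tested receptors the median of the mean differences was 0.06, against 0.01 over all tested genes. Fzd3, a receptor needed for axon guidance, stood at 931, 838 and 1753 in the knockout, against 913, 825 and 1610 in wild type. Lrp6, the co-receptor, was 336, 265 and 263 in the knockout, against 310, 206 and 212 in wild type (mean 0.26 ± 0.10, adjusted p = 0.999). Of the secreted inhibitors, Sfrp1 stood at 575, 565 and 940 in the knockout, against 681, 713 and 944 in wild type (mean -0.19 ± 0.08, adjusted p = 0.999). The 6 tested inhibitors had a median of 0.06. At single ages and counting any size, 16 of 33 members were higher and 17 lower at E9.5 (52.8% and 47% of all tested genes), 13 higher and 20 lower at E10.5 (47.8% and 52.1%), and 15 higher and 18 lower at E12.5 (53.7% and 46.2%).

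Several Wnt genes lie beside each other in the mouse genome. In the RefSeq gene order, Wnt6 and Wnt10a, Wnt3a and Wnt9a, Wnt9b and Wnt3, and Wnt10b and Wnt1 are pairs with 0 coding genes between them. Wnt3a, the hem ligand, differed by 0.82, 0.31 and -0.42 at successive ages, while its neighbour Wnt9a differed by -0.20, -0.51 and -0.11. Wnt3a signal was 47.9, 36.4 and 33.9 in the knockout, against 24.2, 28.1 and 47.4 in wild type. Wnt9a signal was 52.4, 51.7 and 32.8 in the knockout, against 61.1, 76.2 and 36.1 in wild type. Neither passed the test (adjusted p = 0.999 for each). This was the only pair with both genes tested, and Wnt3a was just above 24 in wild type at E9.5. Whether neighbours move together can therefore not be read from these values.

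The next comparison took each age by itself, where 1 array stands against 1 and no test is possible. A member was counted if its pair was 2-fold or more apart and its higher signal exceeded 24. No member did so at E9.5, when 1.36% of genes with a signal over 24 were higher and 1.16% lower. The same held for E10.5, with 1.26% higher and 1.71% lower. At E12.5, Fzd10 and Wnt4 were higher (5.88% of 34 members, against 0.519% of genes) and Wif1 was lower (2.94%, against 0.385%).

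Fzd10, a Frizzled receptor of the dorsal neural tube, had signals of 41.4, 52.4 and 117 in the knockout, against 52.4, 48.1 and 53.8 in wild type. The E12.5 knockout array was 2.04-fold above its wild-type pair, and the other 5 arrays lay between 41.4 and 53.8. With a common trimmed mean in place of quantile normalization the E12.5 difference was 0.94, short of 2-fold. The other probe set is dim, at most 6.18. Markers of thalamus, pretectum and midbrain moved in the same pair: their 8 genes summed to 1658, 1643 and 1969 in the knockout, against 1391, 1296 and 682 in wild type, with 8 of 8 higher at E12.5. Of their defining genes, Pax7 signal at E12.5 was 116 in knockout forebrain and 10.9 in wild type, and En1 and En2 were below 24 on both arrays. Their part in the Fzd10 difference was not tested.

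Wnt4, a ligand best known from kidney and gonad development, had 48.8, 60.1 and 24.8 in the knockout, against 27.0, 80.2 and 4.0 in wild type. The 2.98-fold difference at E12.5 thus sets a signal just above 24 against a dim one, and the other probe set had 11.1 in knockout forebrain and 10.3 in that of wild type. Wif1, a secreted Wnt-binding inhibitor, had 3.81, 27.3 and 9.84 in the knockout, against 2.98, 22.4 and 26.3 in wild type. Its E12.5 difference was 2.01-fold, also close to the floor. A further 5 dim members passed 2-fold with both signals of the pair under 24, so they give no fold. The share of all genes doing so was not counted. These members were Wnt3, Wnt8a and Wnt10b at E9.5, Wnt1 at E10.5 and Wnt2b at E12.5. Wnt2b, a hem ligand, was 2.27 in the knockout and 13.1 in wild type at that age. The 6 markers of hem, roof plate and choroid plexus that are not members summed to 469 in the knockout and 3071 in wild type at E12.5. Most of that sum is Ttr, a choroid plexus gene (278 in the knockout and 2855 in wild type), 4 of the 6 were lower, and Lmx1a was below 24 on every array. At E9.5 and E10.5, where Rspo3 and Wnt8b were lower as well, this sum was 712 and 1029 in the knockout, against 564 and 1065 in wild type. The part of these cells in the Wnt2b, Rspo3 and Wnt8b differences was not tested.

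Whether the genotype difference itself changed with age was tested as a linear trend over embryonic day. No gene passed with limma (0 of 11091 tested), and 46 genes had an unadjusted p under 0.05, 0.415% of those tested. Fzd10 was the 1 member among them, with a difference that was 0.45 larger per day (limma adjusted p = 1.0). This fit takes age as a straight line, so any other age change shared by the genotypes counts as spread and can hide a difference. Failing it therefore does not show that a difference was alike at all ages. A difference seen at E12.5 alone is likewise not shown to differ from that at the earlier ages.

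The last comparison followed the members from E9.5 to E12.5 over both genotypes, 2 arrays per age. On the brightest probe set of each member, Wnt7a, Wnt7b, Fzd1, Fzd3 and the secreted inhibitor Sfrp1 rose. Wnt5a, Wnt5b, Fzd4, Fzd5, Fzd7 and Dkk1 fell the most. By limma with genotype as a block, 5 of the 33 tested members rose (15.2%, against 25.9% of all tested genes) and 16 fell (48.5%, against 36.9%). This split depends on the scaling, since the arrays differ in level: with a common trimmed mean 8 rose (24.2%, against 29.9%) and 12 fell (36.4%, against 31.2%), and on the values as deposited 11 rose (33.3%, against 49.2%) and 7 fell (21.2%, against 15%). The median tested gene moved by -0.14, -0.02 and 0.39 under quantile, trimmed mean and no scaling. Of the 21 members that passed, Lrp6, Nkd1, Rspo2 and Wnt9a changed sign under some scaling, and 0 crossed to the other side of that median.

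**Figure D4:**
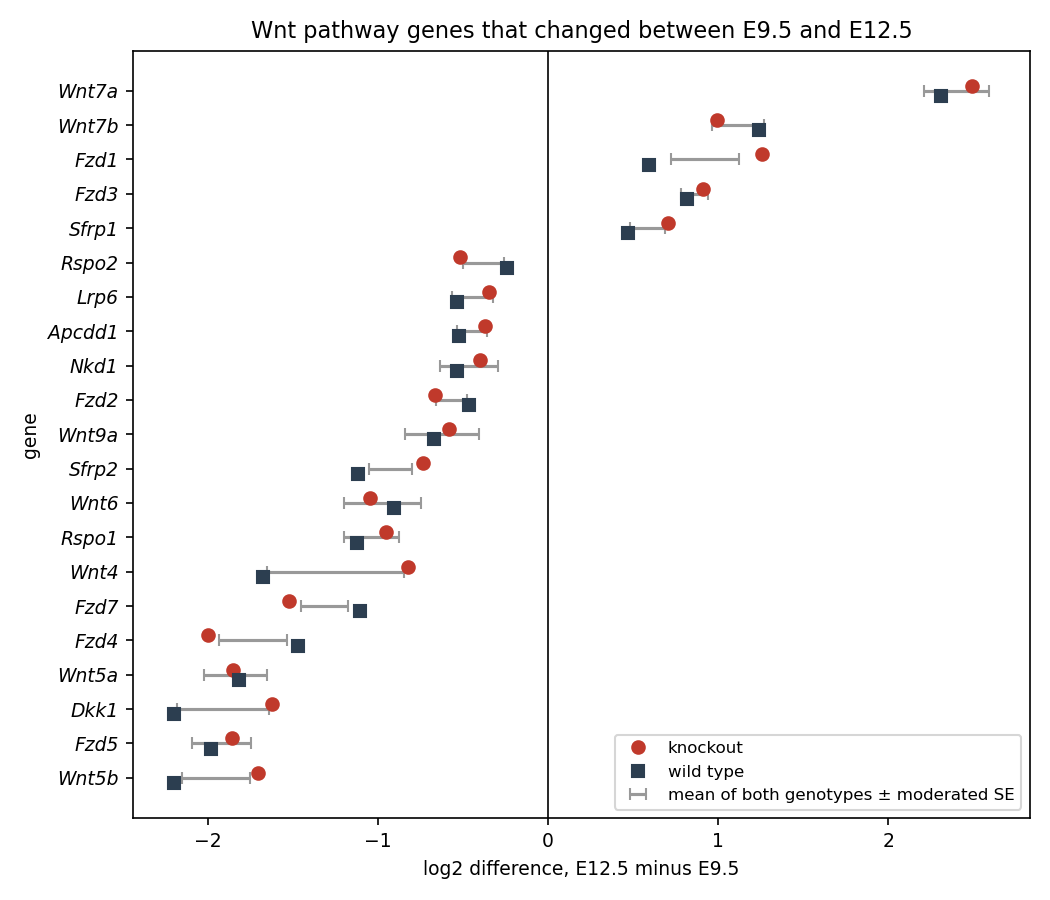
Log2 difference, E12.5 minus E9.5 (x axis), of the 21 Wnt pathway genes that passed the test (y axis), in knockout (red circles) and wild type (dark squares), 1 array pair per point, with grey bars for the mean of both genotypes ± limma's moderated SE. Both genotypes lie on the same side of 0 for every gene shown, from Wnt7a (2.40) to Wnt5b (-1.95).

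Wnt7a, a ligand of neural progenitors, stood at 26.5, 49.3 and 179 in the knockout and at 28.7, 44.2 and 168 in wild type. It rose by 2.40 ± 0.19 (5.28-fold, adjusted p = 6.66e-06), with 2.49 in the knockout and 2.31 in wild type. A dimmer Wnt7a probe set rose by 0.33 in the knockout and 0.25 in wild type. Wnt7b, its close relative, stood at 161, 174 and 326 in the knockout and at 147, 241 and 355 in wild type (1.12 ± 0.15, adjusted p = 1.76e-04). Both ligands are known for their role in the growth of brain vessels as well as in cortical progenitors.

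Fzd1 stood at 296, 304 and 715 in the knockout and at 307, 415 and 467 in wild type, a rise of 0.93 ± 0.20 (adjusted p = 0.00289). Its change was 1.25 in the knockout and 0.60 in wild type, a gap that did not pass the linear trend test (limma adjusted p = 1.0). Fzd3 rose by 0.86 ± 0.08 on its brightest probe set (adjusted p = 1.55e-05). Its next 2 probe sets went the other way, by -0.96 and -1.22 in the knockout and by -1.0 and -1.36 in wild type, so the direction for Fzd3 depends on the probe set. Sfrp1 stood at 575, 565 and 940 in the knockout and at 681, 713 and 944 in wild type (0.59 ± 0.10, adjusted p = 7.87e-04).

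Wnt5a, a ligand best known for signalling without beta-catenin, stood at 148, 134 and 36.3 in the knockout and at 143, 191 and 35.9 in wild type. It fell by 1.83 on the log2 scale (SE 0.19, adjusted p = 2.67e-05), all of it after E10.5: the change was 0.13 between E9.5 and E10.5 (adjusted p = 0.623) and -1.97 between E10.5 and E12.5 (adjusted p = 3.84e-05). Wnt5b, its paralog, stood at 111, 91.4 and 29.6 in the knockout and at 130, 99.1 and 23.2 in wild type (-1.95 ± 0.20, adjusted p = 2.78e-05). Dkk1, the inhibitor of Lrp6 whose promoter window is printed above, stood at 44.1, 71.6 and 9.93 in the knockout and at 50.1, 54.1 and 5.82 in wild type (-1.91 ± 0.27, adjusted p = 2.26e-04). Its E12.5 signals lie under 24 in both genotypes.

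Among the receptors, Fzd5, a gene of the eye field and ventral forebrain, stood at 161, 97.7 and 39.8 in the knockout and at 175, 85.4 and 39.5 in wild type. It fell at both steps, by 0.84 between E9.5 and E10.5 (adjusted p = 0.00730) and by 1.08 between E10.5 and E12.5 (adjusted p = 6.83e-04). Fzd4, a receptor of endothelial cells among others, stood at 151, 102 and 32.9 in the knockout and at 116, 77.0 and 37.5 in wild type (-1.74 ± 0.20, adjusted p = 5.86e-05). Fzd7 stood at 315, 314 and 105 in the knockout and at 284, 328 and 129 in wild type (-1.31 ± 0.14, adjusted p = 3.11e-05). The R-spondin Rspo1 also fell, by 1.04 (SE 0.16, adjusted p = 4.27e-04), while Rspo3 did not pass (0.11 ± 0.15, adjusted p = 0.544). Sfrp4, an inhibitor with no difference over the whole period that passed, fell by 1.37 to E10.5 (adjusted p = 0.00451) and rose by 1.30 after it (adjusted p = 0.00211).

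Each step in age was also counted, under quantile scaling only. Between E9.5 and E10.5, 1 tested member rose (3.03%, against 13.8% of all tested genes) and 6 fell (18.2%, against 15.1%), and between E10.5 and E12.5, 7 rose (21.2%, against 20.2%) and 13 fell (39.4%, against 29.9%). Of the 21 members that passed over the whole period, 13 had a next brightest probe set above the filter. It moved the same way in both genotypes for 9 and the other way for 3 (Apcdd1, Fzd2 and Fzd3). Dimmer probe sets, such as those of Sfrp1, were not counted. Markers of tissue around the brain moved over the same period. The 8 surface ectoderm markers summed to 1733 and 1463 at E9.5 in knockout and wild type, and to 142 and 146 at E12.5, when 6 of them lay below 24 in each genotype. The 10 head mesenchyme markers summed to 4804 and 3683 at E9.5 in knockout and wild type, and to 1516 and 2203 at E12.5. Not all of these 10 fell: over both genotypes Col1a1 rose by 2.17 and Dcn by 1.96, while the others fell. The part of these ectoderm and mesenchyme markers in the falls of Wnt5a, Wnt5b, Wnt4, Wnt6, Fzd4 and Fzd7 was not tested. Nor was that of Xist, which fell over the same period (adjusted p = 0.00174). Without the E10.5 pair 5 members rose and 16 fell, with Lef1 among those that fell in place of Nkd1. The shares of all genes that rose or fell were not counted without that pair.

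Other genes of the pathway were read from a list of 69, of which 67 were on the array and 56 were tested. None passed for genotype with limma (0 higher and 0 lower), and 4 of the 56 had an unadjusted p under 0.05, where 4.61% of all tested genes did, so no more is read from them. These 4, named after their values were seen, were Wls, which carries Wnts to the cell surface (mean -0.30), the receptor-like target Tnfrsf19 (-0.32), and the nuclear factors Tcf7l1 (0.35) and Tcf7l2 (0.58). Tcf7l2, a partner of beta-catenin and also a marker of the thalamus, had signals of 277, 341 and 1262 in the knockout, against 248, 297 and 474 in wild type, a 2.64-fold difference at E12.5. Celsr3, a planar polarity receptor of young neurons, was 30.4 in the knockout and 4.61 in wild type at E9.5, with a mean of 0.67 ± 0.30 over the ages (adjusted p = 0.999). Beta-catenin itself, Ctnnb1, stood at 6473, 5911 and 7090 in the knockout, against 6154, 6122 and 6521 in wild type (mean 0.05 ± 0.05, adjusted p = 0.999). With age, 19 of the 56 rose and 22 fell under quantile scaling, where 25.9% of all tested genes rose and 36.9% fell. These counts were not recomputed under the other scalings, which moved the shares of all genes as given above. Celsr3 rose by 3.37 and Tcf7l2 by 1.54, while Tcf7l1 fell by 1.24 and Wls fell by 1.05.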

How the data were processed

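The 6 arrays, 1 for each genotype and age, were grouped by their labels. Each deposited value is a probe set's intensity (linear), produced with MAS5 per the submitters' processing notes. The scaling target and detection calls were not used here. Of 45101 probe sets, 34958 name 1 gene, 932 several and 9211 none. A gene took its brightest probe set by mean intensity. Arrays were quantile normalized and transformed to log2(signal + 6.5), with the lower quartile of the deposited intensities as pseudocount. Genes with a mean log2 over 4.88, 11091 of 18194, were tested with limma 3.58.1 in R 4.3.3 (lmFit, then eBayes with a variance trend), with genotype and age as terms. This left 2 residual degrees of freedom (9.40 after moderation). Benjamini-Hochberg adjustment ran over all tested genes, with 0.05 as threshold. The fit was tested on simulated data. The number of arrays limits the precision.

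The members and lists were chosen with earlier results of these data known. Named were members passing for genotype, those 2-fold apart at an age with a signal over the median, tested members at least 0.3 apart in the same direction at every age, 4 target genes, and the 6 largest rises and falls with age. Alternatives were no scaling, a common trimmed mean (2% trimmed), pseudocounts of 1 and 16, averaged probe sets, no filter, no variance trend, no block, and leaving out each pair.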

Additional observations from a re-analysis of the deposited data

Results flagged for a closer look

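Among the 33 tested Wnt pathway genes, 4 differed by at least 0.3 on the log2 scale in opposite directions at different ages (12.1%, against 8.85% of all tested genes). None of these reversals passed limma's linear trend test (adjusted p = 1.0 for each), and the differences at single ages have no replicate. The linear trend test can miss such changes, as said above. Axin2 was 0.32 higher in the knockout at E9.5 and stood at -0.49 at E12.5. Wnt3a was 0.82 higher at E9.5 and stood at -0.42 at E12.5. Fzd1 stood at -0.44 at E10.5 and was 0.61 higher at E12.5, and its other probe set at -0.57 and 0.75. Wnt4 stood at -0.38 at E10.5 and was 1.58 higher at E12.5, while its other probe set was higher at both ages, by 0.37 and 0.07. Of the 10 head mesenchyme markers, 9 were higher in the knockout at E9.5 (median 0.44) and 9 lower at E12.5 (median -0.49), and their part in these reversals was not tested.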

How the results depend on the processing

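The count of members lower in the knockout across ages, 1 in the setting reported, was 0 on the values as deposited, with a common trimmed mean, with a pseudocount of 1, with all probe sets, without the filter, without a variance trend and without the age block, and 0 to 2 when a pair of arrays was left out. For age, unscaled values gave 11 higher and 7 lower members, 8 were higher with a common trimmed mean and 8 lower with all probe sets. At a single age, members at least 2-fold apart numbered 1 at E10.5 with a trimmed mean (Wnt8b), 1 at E9.5 with a pseudocount of 1 (Wnt9b), 1 at E12.5 with a pseudocount of 16 (Wnt4) or with all probe sets (Wif1), and 3 at E9.5 and 1 at E10.5 without a floor. The shares of all genes at a single age were not counted under these settings, nor were those for age with all probe sets. Mean genotype differences changed sign for Lef1 (0.13 as deposited, 0.0995 without the E10.5 pair, -0.21 without the E12.5 pair), Fzd10 (-0.0940 without the E12.5 pair, 0.57 without the E9.5 pair), Wif1 (0.17 without the E12.5 pair, against -0.22 with all pairs and -0.44 without the E10.5 pair) and Axin2 (-0.00175 with a pseudocount of 1, -0.31 with all probe sets, -0.16 without the E9.5 pair, -0.0854 without the E10.5 pair and 0.25 without the E12.5 pair). The cause was not tested. Rspo3, Wnt8b and Nkd1 stayed lower in the knockout under all 11 alternatives, from -0.80 to -0.44, from -0.67 to -0.39 and from -0.42 to -0.19. For several alternatives this sign was fixed in advance. These genes were named for being lower in every pair, so leaving out a pair could not change it. Dropping the filter, the variance trend or the block leaves the means as they were. Only the scalings, pseudocounts and averaged probe sets could have changed the sign. No paired analysis beyond the age block was possible because the labels number no replicates. Signals under the median of all values limit what can be said of the dim ligands.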
